A study of Mus musculus with 38 samples.

Results

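Enteroendocrine cells are the hormone-secreting cells of the gut epithelium, and the 10 genes described here are ones that mark them: Chga, Chgb, Tph1, Gcg, Pyy, Sct, Cck, Sst, Neurog3 and Neurod1. They were found by gene symbol in the deposited count tables, each symbol matched 1 row, and they are 10 of the 46078 genes counted. The tables come from RNA sequencing of isolated intestinal epithelial cells of 38 C57BL/6 mice, 1 library per mouse, as the sample labels have it. The series' own text speaks of colon tissue instead, so how pure the epithelial material was is known only from the markers given below. In KO mice (Hk2dIEC) both floxed copies of Hk2, the gene of hexokinase 2, are exposed to Villin-Cre, whose promoter is active throughout the intestinal epithelium. WT mice are littermates that carry the same floxed alleles, and per the labels both genotypes shared cages.

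The untreated groups, called day 0, held 4 WT and 5 KO mice. After 3 days of 1.5% dextran sodium sulfate (DSS) in the drinking water, which injures the colonic epithelium and causes colitis, there were 7 WT and 8 KO mice. After 7 days there were 7 of each genotype. The DSS mice were males of 10 to 12 weeks. Basal phenotyping used mice of 9 to 11 weeks and others of 86 to 92 weeks of age, and which of these the day 0 mice were is not given. Libraries are named below as in the labels, by day, genotype and number of the mouse (d7_KO_420).

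Enteroendocrine cells arise from crypt progenitors that switch on the transcription factor Neurogenin 3 and then NeuroD1. Mature cells store their products in dense-core granules, where chromogranins are packed together with peptide hormones or with serotonin. In the colon the main types are enterochromaffin cells, which make serotonin, L cells, which make peptide YY and the proglucagon peptides, and D cells, which make somatostatin.

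The libraries held 10503352 to 60644284 counts. Levels are in CPM, the count scaled to a common library total after TMM normalization. On that scale 3 counts, taken as the limit of what a count of 0 allows, correspond to between 0.0452 and 0.352 CPM. The highest limit was that of d0_KO_32, which held 17488676 counts, and the library with the fewest counts, d0_KO_60, had a limit of 0.298 CPM. Hk2 itself averaged 347 CPM in WT and 76.4 CPM in KO on day 0, and 332 and 140 CPM on day 7 (edgeR adjusted p = 0.0331 on day 0 and 0.291 on day 7). On day 3 the WT mean was 173 CPM, and 7 of the 8 KO libraries lay between 68.4 and 127.9 CPM, but the library labelled d3_KO_345 held 434.6 CPM, which goes against its label. Besides, the library labelled d3_WT_346 held 97.0 CPM, inside that KO range, and d7_KO_420 held 268.1 CPM, inside the WT day 7 range of 228.2 to 611.1 CPM. Calls without each of these 3 libraries are given further on. The files of the day 0 libraries belong to another library series than the rest, so untreated state and library series cannot be told apart. Epithelial markers were high everywhere (Epcam 1253 to 1923 CPM), and the distal colon gene Hoxb13 was present in every library. The small intestinal list summed to 159 to 1207 CPM, most of it Fabp2 (group medians 203.3 to 322.6 CPM). Alpi had group medians of 15.9 to 53.6 CPM, and Lct and Apoa4 had medians of 0.704 CPM or less. Of the genes that would mark other sources of these hormones, the islet gene Ins2 had no count in any of the 38 libraries. The pancreas list as a whole summed to 44.6 to 341.4 CPM, nearly all of it Cela1 (group medians 59.5 to 220.6 CPM). The enteric neuron list summed to 3.63 to 18.2 CPM, most of it Ret (group medians 1.95 to 7.76 CPM), and its gene Vip had no count in 36 libraries.

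The 10 genes lie on 7 chromosomes (GRCm38, positions from the deposited annotation). Chga spans chromosome 12 from 102554969 to 102565027 on the plus strand, and Chgb spans chromosome 2 from 132781278 to 132795079 on the plus strand. Tph1 lies on chromosome 7 from 46647130 to 46672537 on the minus strand. The hormone genes are Gcg (chromosome 2, 62474530 to 62483650, minus), Pyy (chromosome 11, 102106676 to 102107832, minus), Sct (chromosome 7, 141278331 to 141279133, minus), Cck (chromosome 9, 121489825 to 121495689, minus) and Sst (chromosome 16, 23889581 to 23890844, minus). Neurog3 lies on chromosome 10 from 62133090 to 62134763 (plus) and Neurod1 on chromosome 2 from 79452521 to 79456751 (minus). Counting ignored strand, so reads of Neurod1 cannot be told apart from those of the overlapping Cerkl and antisense Gm26755 where they overlap, nor reads of Neurog3 from antisense 2010107G23Rik. The other 8 genes overlap no counted gene.

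Chga and Tph1 went up and down together from mouse to mouse, as shown further on, whereas Sst varied apart from them, so the 250 bases upstream of these 3 genes are shown for comparison. The sequences are RefSeq's (GRCm38.p6) and run 5′ to 3′ on the strand of the gene. They are chr12:102554691-102554940 (plus) for Chga, chr7:46672538-46672787 (minus) for the outer of both Tph1 starts in the table, and chr16:23890845-23891094 (minus) for Sst. Capitals mark matches on either strand to the cyclic AMP response element TGACGTCA, to the E-boxes CAGATG and CAGCTG, and to the TATA box TATAAA, none of which overlap here.
Chga: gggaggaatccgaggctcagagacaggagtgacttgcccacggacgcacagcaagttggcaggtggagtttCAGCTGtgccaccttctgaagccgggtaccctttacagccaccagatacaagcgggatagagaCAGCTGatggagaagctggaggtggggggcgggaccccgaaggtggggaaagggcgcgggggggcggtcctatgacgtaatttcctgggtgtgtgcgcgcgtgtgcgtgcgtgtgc
Tph1: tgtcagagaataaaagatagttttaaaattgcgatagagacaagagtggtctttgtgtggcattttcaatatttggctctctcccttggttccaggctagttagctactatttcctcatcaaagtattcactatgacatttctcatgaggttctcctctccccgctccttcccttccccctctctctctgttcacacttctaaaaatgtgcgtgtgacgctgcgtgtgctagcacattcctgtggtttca
Sst: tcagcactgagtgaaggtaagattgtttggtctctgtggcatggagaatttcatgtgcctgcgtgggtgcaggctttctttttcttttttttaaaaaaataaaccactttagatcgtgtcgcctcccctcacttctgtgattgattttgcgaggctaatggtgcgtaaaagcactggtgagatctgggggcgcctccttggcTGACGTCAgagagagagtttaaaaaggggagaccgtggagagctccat
Sst holds 1 full TGACGTCA, as does the window of Chgb, which is not printed because it lies in an annotated exon. That word occurs in 1.55% of the 32851 upstream windows of this length in the table. Chga holds CAGCTG at 2 places, and 13% of all windows hold that word. The Tph1 window holds none of these words. Chga, Chgb and Tph1 therefore share no exact match to any of them. The Chga window does hold tgacgtaa, which is 1 base off TGACGTCA, and near matches were neither marked nor counted. Such matches describe letters and not binding.

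**Figure D1:**
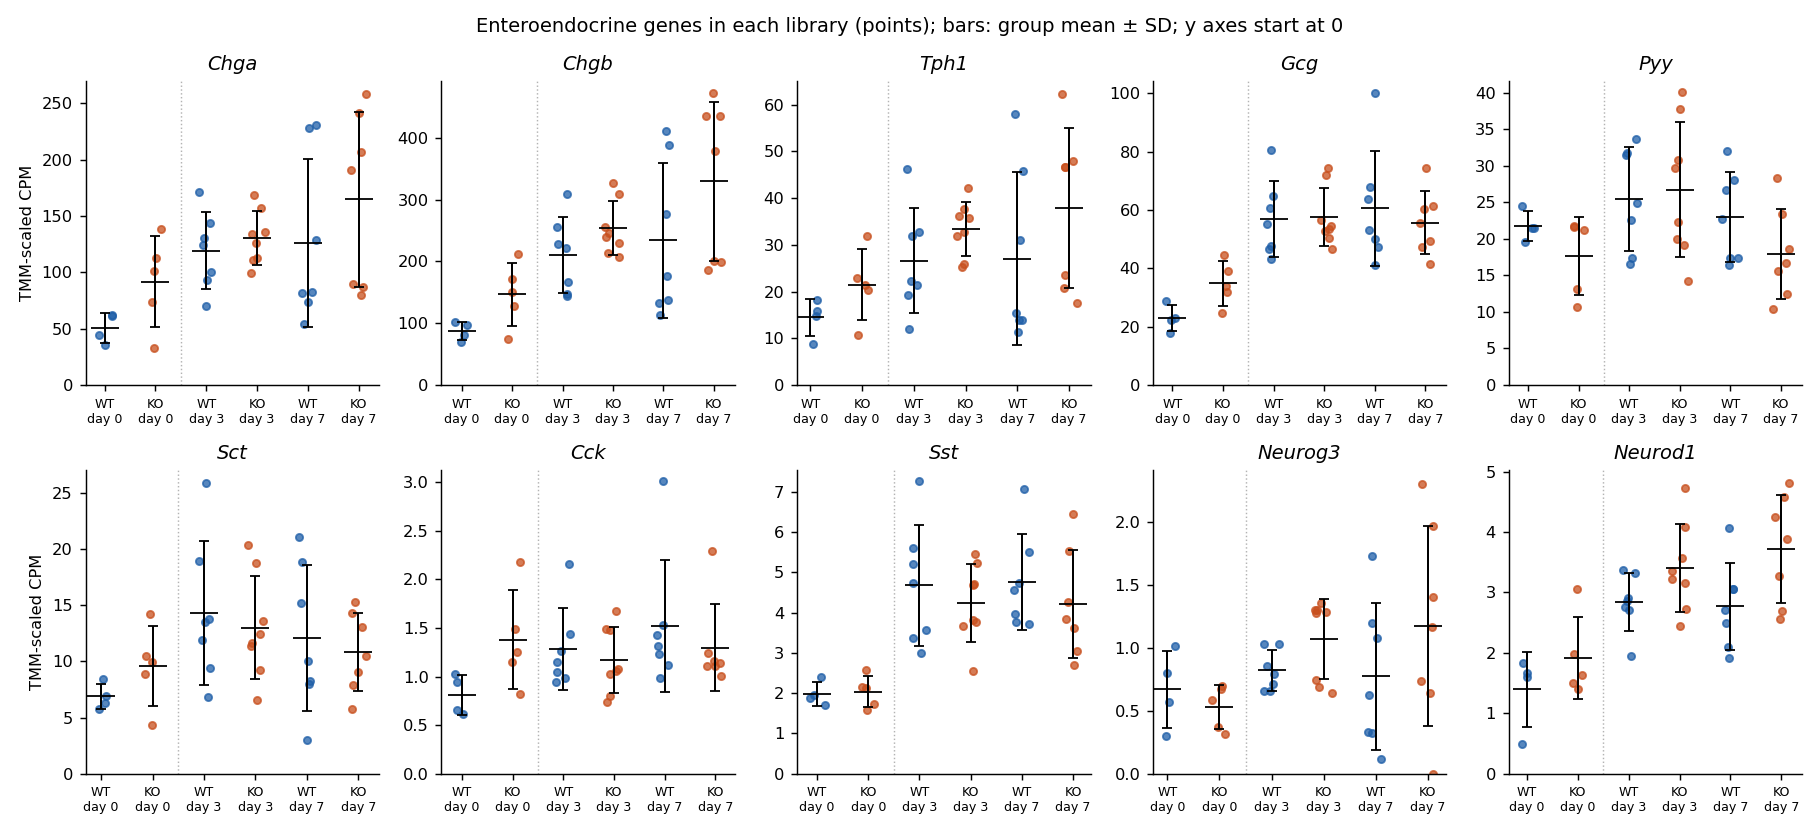
TMM-scaled CPM (y axes, linear, from 0) of the 10 genes in every library (points, blue for WT and orange for KO) by genotype and day (x axes); the black bar is the group mean ± SD, and the dotted line parts day 0 from the DSS days. Chga, Chgb and Tph1 spread most widely on day 7, where Chga ran from 54.3 to 231 CPM in WT and from 79.7 to 258.6 CPM in KO.

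Set per kilobase of exon so that genes can be compared (RPKM), the granule proteins led in 5 of the 6 groups. In KO on day 7 the mean level was 120 RPKM for Chgb and 87.6 RPKM for Chga, followed by Gcg at 37.3, Pyy at 28.4 and Sct at 20.3 RPKM. Tph1 (10.3 RPKM), Sst (7.02 RPKM) and Cck (1.89 RPKM) were lower, and the transcription factors were lowest, Neurod1 at 1.36 and Neurog3 at 0.762 RPKM. In WT on day 0 the order differed at the top: Pyy had the highest mean level, 34.5 RPKM, ahead of Chgb at 31.9 and Chga at 26.9 RPKM. Neurog3 was the lowest of the 10 in each of the 6 groups and Neurod1 the next lowest, and all levels below are TMM-scaled CPM of 1 gene at a time.

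The granule proteins came first. Chga, chromogranin A, was at 35.4, 44.3, 60.9 and 62.1 CPM in WT and at 33.0, 73.8, 101.3, 113.0 and 138.4 CPM in KO on day 0. On day 3 the lowest, median and highest libraries were at 69.8, 124.5 and 171.4 CPM in WT and at 99.3, 130.1 and 169.1 CPM in KO. On day 7 they were at 54.3, 82.9 and 231.0 CPM in WT and at 79.7, 190.9 and 258.6 CPM in KO. Every DSS group overlapped its counterpart of the other genotype, and in WT every day 3 library lay above all 4 untreated ones. Of all genes of mean CPM of at least 1, 28.4% did not overlap, in either direction, between WT on day 0 and on day 3. In this bulk material more cells of a type and more RNA per cell cannot be told apart, for Chga as for the other genes.

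On day 7 the libraries of both genotypes fell into high and low ones. The libraries labelled d7_KO_420, d7_KO_421, d7_KO_422 and d7_KO_423 lay at 190.9 to 258.6 CPM of Chga and KO mice d7_KO_366, d7_KO_367 and d7_KO_368 at 79.7 to 89.4 CPM. WT mice d7_WT_370 and d7_WT_419 lay at 228.4 and 231.0 CPM, d7_WT_356 at 128.7 CPM, and the other 4 WT mice at 54.3 to 82.9 CPM. The same 6 mice were the highest of both genotypes for Chgb, chromogranin B (378.4 to 472.0 CPM), and for Tph1, tryptophan hydroxylase 1, the rate-limiting enzyme of serotonin synthesis (45.7 to 62.4 CPM). KO mice d7_KO_366, d7_KO_367 and d7_KO_368 also gave the 3 lowest KO values of Gcg (41.4 to 49.4 CPM), Pyy (10.5 to 15.6 CPM) and Neurod1 (2.56 to 3.27 CPM). In WT, Neurod1 was highest in d7_WT_370 (4.07 CPM) and d7_WT_419 (3.06 CPM), but Gcg and Pyy did not follow the split. Gcg was highest in d7_WT_386 (100.1 CPM), against 63.8 and 53.3 CPM in d7_WT_370 and d7_WT_419. Pyy was lowest in d7_WT_419 (16.4 CPM) and highest in d7_WT_386 (32.1 CPM). Sct, Sst, Neurog3 and Cck did not follow the split by Chga either. Among KO mice Sct was lowest in d7_KO_420 (5.77 CPM), Sst in d7_KO_422 (2.71 CPM) and Neurog3 in d7_KO_420 (0 CPM). Cck was lower in d7_KO_421 (1.11 CPM) than in d7_KO_366 (1.16 CPM). Stromal markers moved with this split in KO: they summed to 193.4, 60.4 and 213.1 CPM in d7_KO_366, d7_KO_367 and d7_KO_368, and to 29.3, 14.9, 21.9 and 17.4 CPM in d7_KO_420 to d7_KO_423. In WT they were at 58.0 and 75.4 CPM in d7_WT_370 and d7_WT_419 and at 115.0 CPM in d7_WT_356, and ran from 7.94 to 58.0 CPM in the other 4, so there the 2 highest stromal sums were not in the libraries low for Chga. Epithelial markers summed to 12570 to 17160 CPM over the 7 KO libraries. The part of other cells in this spread was not tested. The labels name no batch for the mice, and no comparison was made between these sets, which were noticed in the values.

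Chgb stood at 70.5 to 101.9 CPM in WT and 73.9 to 211.9 CPM in KO on day 0. The median was 222.1 and 243.0 CPM in WT and KO on day 3, and 176.5 and 378.4 CPM on day 7. Tph1 had medians of 15.4 and 21.5 CPM on day 0, 22.3 and 34.3 CPM on day 3, and 15.4 and 46.6 CPM on day 7, WT first each time. Tph1 ranged over 5.15-fold within WT on day 7 (11.3 to 58.0 CPM) and over 1.67-fold within KO on day 3. Mast cells also make serotonin through Tph1. Mast cell markers summed to similar medians, 59.8 to 81.7 CPM over the groups. Kit, with medians of 38.7 to 79.5 CPM, made up most of the sum. From day 3 to day 7 the median of Kit fell, from 79.5 to 38.7 CPM in WT and from 63.8 to 40.1 CPM in KO. The mast cell proteases rose over these days. Medians of Mcpt1 went from 0.649 to 17.3 CPM in WT and from 1.19 to 14 CPM in KO. Those of Mcpt2 went from 0.177 to 9.76 CPM in WT and from 0.619 to 7.805 CPM in KO. Those of Cpa3 went from 0.0819 to 0.7995 CPM in WT and from 0.0858 to 1.055 CPM in KO. Of the mast cell markers tested, edgeR called 2 of 4 higher and 1 lower in WT. In KO it called 3 of 6 higher and 1 lower. Tpsab1 had no count in 32 libraries. The part of these cells in Tph1 was not tested.

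Among the L cell hormones, Gcg, which encodes proglucagon, the source of GLP-1 and GLP-2, was at 17.97, 22.2, 22.8 and 28.6 CPM in WT on day 0. KO on day 0 gave 24.5, 31.8, 34.1, 39.1 and 44.7 CPM. Its DSS medians all lay between 53.3 and 55.5 CPM, the most even of the hormones, and each DSS library, lowest 41.1 CPM, exceeded each WT day 0 library. Of all genes of mean CPM of at least 1, 28.4% did not overlap between WT on day 0 and on day 3, and 37.5% between day 0 and day 7. Pyy, which encodes peptide YY, was at 19.6, 21.5, 21.5 and 24.5 CPM in WT and 10.7, 13.2, 21.1, 21.6 and 21.7 CPM in KO on day 0. Its medians were 24.9 and 25.9 CPM on day 3 and 22.7 and 16.7 CPM on day 7 in WT and KO. All 6 groups overlapped for Pyy.

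Sct, secretin, had group medians of 6.64 to 13.5 CPM, and within WT on day 7 it ranged over 7.03-fold, from 3.00 to 21.1 CPM. Cck, cholecystokinin, was scarce, with medians of 0.801 to 1.32 CPM. Sst, somatostatin, which inhibits other endocrine cells, was at 1.70, 1.88, 1.95 and 2.39 CPM in WT on day 0 and 1.59 to 2.58 CPM in KO. Its medians in the 4 DSS groups were 3.83 to 4.73 CPM, and its lowest DSS library, at 2.55 CPM, lay just under the highest untreated one.

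The transcription factors were close to the counting limit in places. Neurod1 had medians of 1.63 CPM in both untreated groups, 2.86 and 3.28 CPM on day 3, and 2.71 and 3.88 CPM on day 7. Neurog3 had medians of 0.587 to 1.28 CPM, and on day 7 it ran from 0.117 to 1.73 CPM in WT and from 0 to 2.30 CPM in KO. The library at 0, d7_KO_420, was among the highest for Chga, and a count of 0 there allows up to 0.0801 CPM.

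The library d0_KO_32 stood apart in its untreated group. It was the lowest of the 5 for 8 of the 10 genes, Chga among them at 33.0 CPM against 73.8 to 138.4 CPM in the others, and the highest for Sst. Its goblet cell markers were the lowest as well, at a sum of 8743 CPM against a group median of 30350 CPM. It held the most counts of its group, 17488676, yet after TMM scaling 3 counts correspond to 0.352 CPM there, the highest limit of all libraries.

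Which of these genes vary together was asked by removing each group's mean from the log2 CPM and correlating what remained over the 38 libraries. Chga was followed most closely by Chgb, with a Pearson r of 0.970 and a Spearman rho of 0.964, and by Tph1, with r = 0.916 and rho = 0.916. For both the two-sided permutation p within groups was 1e-05, the smallest that the resamples allow, and 4.5e-05 when adjusted over the 9 relations with Chga. Neurod1 was next, at r = 0.558 and rho = 0.647 (permutation p = 0.0003, adjusted 0.0009). Gcg had r = 0.370 (permutation p = 0.0515, adjusted 0.116) but rho = 0.488 (adjusted permutation p = 0.0133), and without the 2 libraries farthest from the median of Chga, d0_KO_32 and d7_WT_386, its r was 0.533. Leaving out the same 2 libraries gave r = 0.965 for Chgb, 0.919 for Tph1 and 0.604 for Neurod1. By day, r of Gcg was 0.764 on day 0 (0.511 without d0_KO_32), 0.639 on day 3 and 0.123 on day 7.

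The other 5 genes were not tied to Chga by this test over the 38 libraries. Sct had r = 0.316 (permutation p = 0.110, adjusted 0.199) and Cck r = 0.216 (permutation p = 0.255, adjusted 0.383). By day, r of Cck was 0.537 on day 0 (0.0354 without d0_KO_32), 0.547 on day 3 and -0.0603 on day 7. That of Sct was 0.489 on day 3 and 0.0815 on day 7. Pyy had r = 0.149 (permutation p = 0.409, adjusted 0.525), Neurog3 r = -0.09 (permutation p = 0.714) and Sst r = -0.116 (permutation p = 0.518, adjusted 0.583). For Neurog3 the sign depended on scaling, as r was 0.0714 when libraries were scaled to epithelial markers. The day 0 libraries, of another series, gave r = 0.980 for Chgb and 0.911 for Tph1 (9 libraries), or 0.935 and 0.802 without d0_KO_32, and the DSS libraries gave 0.973 and 0.928 (29 libraries). The split of the day 7 libraries was not needed for this, since the 15 day 3 libraries alone gave 0.929 for Chgb and 0.816 for Tph1. For Neurod1, r was 0.326 in the day 0 libraries, 0.229 there without d0_KO_32, and 0.743 in the DSS libraries. For Sct, r was 0.907 in the day 0 libraries, 0.648 there without d0_KO_32, and 0.185 in the DSS libraries. The differences between the library sets were not tested.

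**Figure D2:**
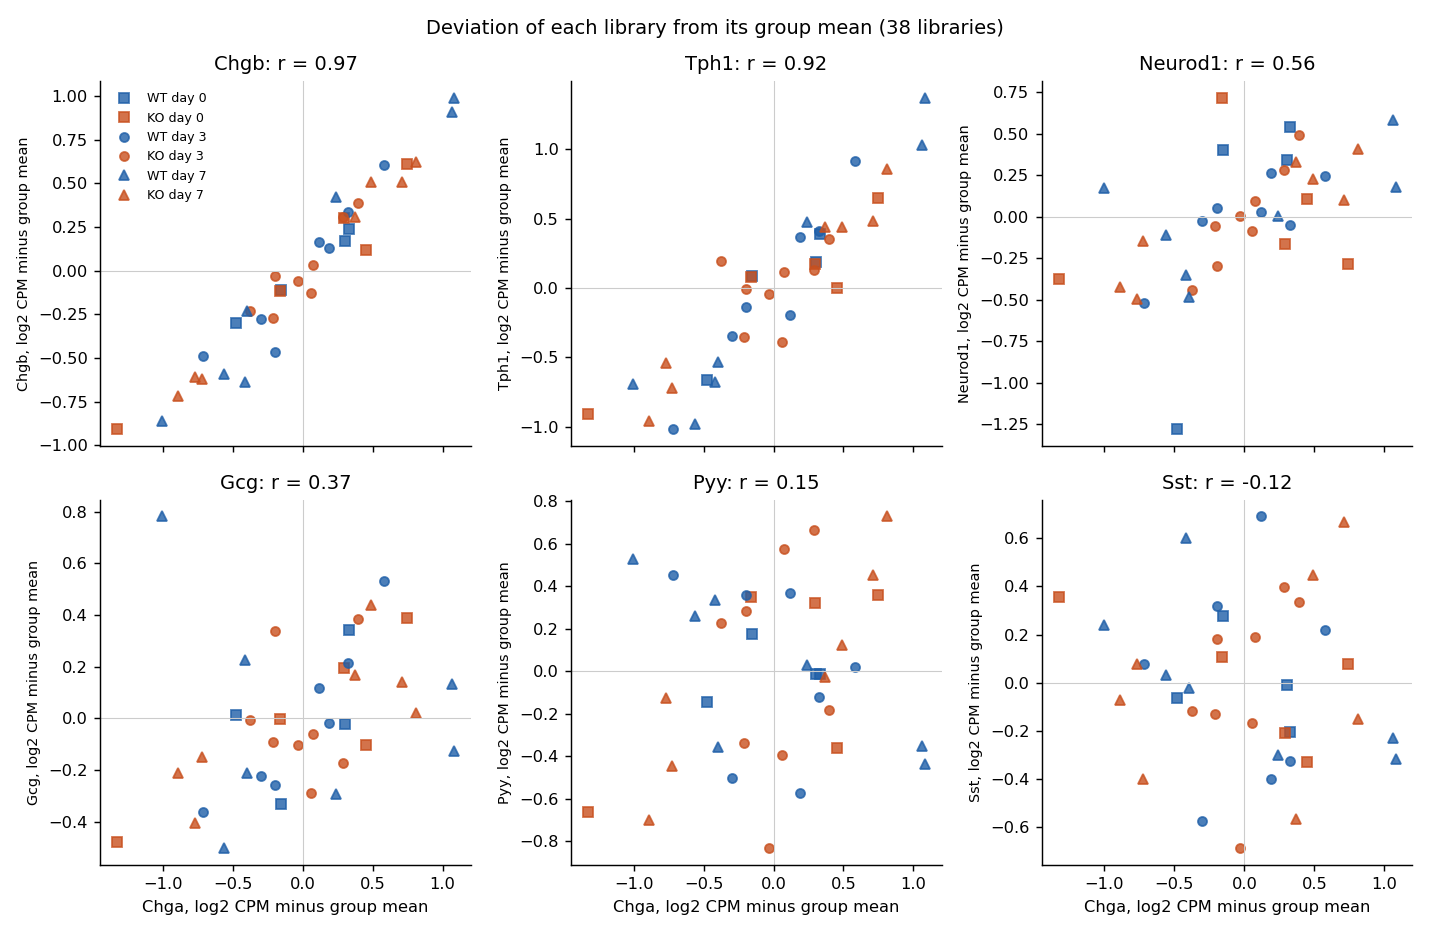
Each point is 1 of 38 libraries (blue WT, orange KO; squares day 0, circles day 3, triangles day 7); the x axis is the deviation of Chga, and the y axis that of 1 other gene, from its group mean in log2 CPM. Chgb and Tph1 follow the diagonal (r = 0.97 and 0.92), Neurod1 and Gcg do so loosely (0.56 and 0.37), and Pyy and Sst form clouds (0.15 and -0.12).

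Of all 45 pairs of the 10 genes, 9 had an r that passed with p adjusted over the pairs. Chgb and Tph1 gave r = 0.936. Gcg went with Cck, at r = 0.697 and rho = 0.554 (permutation p = 4e-05, adjusted 0.00045), and at r = 0.567 without the 2 libraries farthest from the median of Gcg. Pyy went with Sst, at r = 0.566 and rho = 0.590 (permutation p = 0.00083, adjusted 0.00467), although the 2 hormones come from different cell types. That tie was seen in the DSS libraries (r = 0.660) and not on day 0 (r = -0.0927). Neurog3 and Sct gave r = 0.445 (permutation p = 0.00698, adjusted 0.0349), with rho = 0.407 past the threshold only before adjustment (0.0612 after), and r = -0.28 on day 0. Neurod1 went with Chgb (r = 0.511) and Tph1 (r = 0.597) as it did with Chga, and on day 0 alone r was 0.265 and 0.557.

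**Figure D3:**
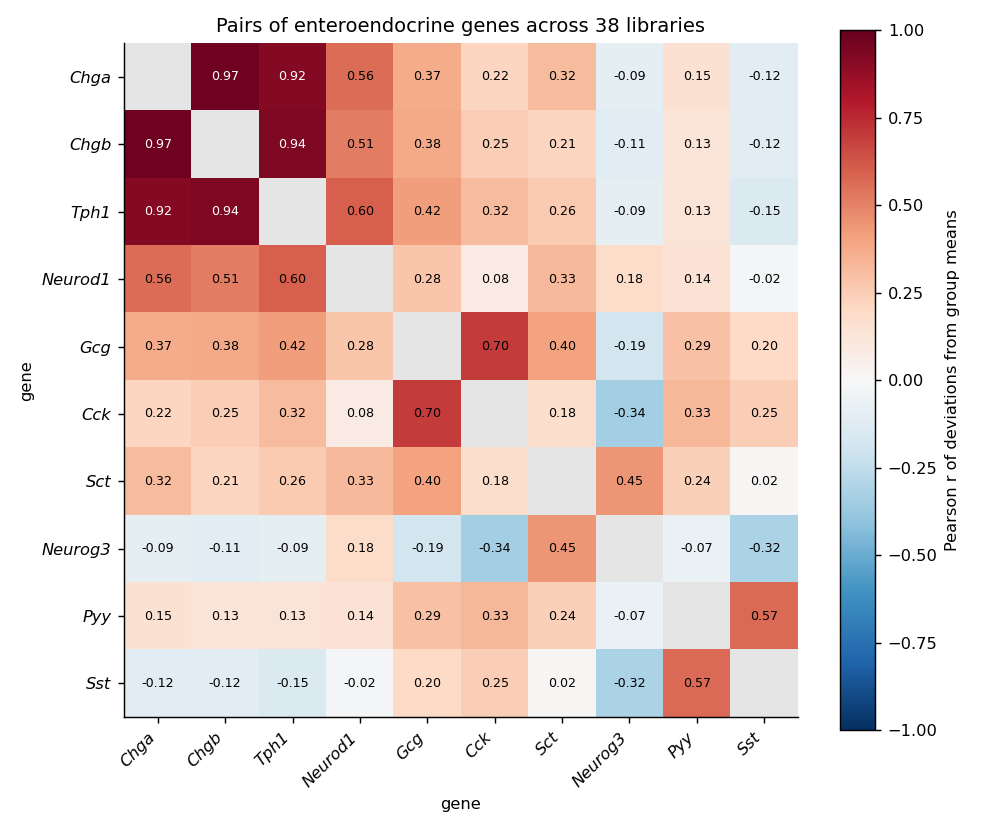
Pearson r of the deviations from group means for each pair of the 10 genes (both axes list the genes; red positive, blue negative, color scale from -1 to 1; 38 libraries). Chga, Chgb and Tph1 form the darkest block (0.92 to 0.97), Gcg with Cck (0.70) and Pyy with Sst (0.57) stand out elsewhere.

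Ranked among the 13128 other genes of mean CPM of at least 1, Chgb was the gene most like Chga and Tph1 the next. The 5 genes outside the set that came after them all belong to endocrine granules: Pcsk1n, an inhibitor of prohormone convertase 1 (r = 0.915), Resp18 (0.901), Ptprn, a granule membrane protein (0.8997), the granin Scg3 (0.860) and Slc18a1, the vesicular monoamine transporter that loads serotonin (0.838). Nefm, a neurofilament gene of the enteric neuron list, ranked at 24 (r = 0.745). The likeness is a description over 38 libraries that differ in depth, those of day 0 being of another series, and its cause was not tested. Neurod1 ranked at 209, Gcg at 1507, Sct at 2140, Cck at 3408, Pyy at 4370 and Sst at 7907.

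The first comparison asked whether loss of Hk2 changed these genes. None of the genes was called different between KO and WT at an adjusted p under 0.05 (edgeR) on day 0 (9 tested, Neurog3 being too low), day 3 or day 7 (10 tested each), and DESeq2 called none either. The background was low: 0.0335% of all genes tested were called on day 0, 0.00647% on day 3 and 0.00642% on day 7. On day 0, 4 of the 9 had an unadjusted edgeR p under 0.05, against 1563 of 14944 genes tested, and none of the 10 did on day 3 or day 7. Those 4 were higher in KO: Chga by 0.84 log2 units (SE 0.32, adjusted p = 0.411), Chgb by 0.74 (SE 0.24, adjusted p = 0.368), Gcg by 0.59 (SE 0.17, adjusted p = 0.296) and Cck by 0.81 (SE 0.33, adjusted p = 0.428). These edgeR values do not pass the correction, and the KO and WT ranges overlapped for each of the 4. Small intestinal markers leaned the same way on day 0, with a median of 2.71 log2 units over the 6 tested. All 6 were positive, 4 of them at an unadjusted edgeR p under 0.05 and none called. Medians in WT and KO were 1.86 and 5.57 CPM for Sis, 1.39 and 5.00 CPM for Fabp6, and 0.710 and 2.99 CPM for Apoa1. They were 0.371 and 0.704 CPM for Lct, 27.4 and 28.6 CPM for Alpi, 3.08 and 5.22 CPM for Anpep, and 242.5 and 322.6 CPM for Fabp2. The fitted changes follow group means, to which single libraries can add much, and not these medians. The part of the small intestinal markers in the endocrine genes was not tested. The median of the 9 endocrine genes was 0.56 log2 units, and that of all genes tested -0.003.

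With all 38 libraries and day in the model, again none of the 10 was called, against 0.0209% of the genes tested, and 4 had an unadjusted p under 0.05, against 2256 of 19144 genes. These 4 were the set that varied together over the 38 libraries, Neurod1 less closely on day 0 (r = 0.326 with Chga). Chgb was higher in KO by 0.46 log2 units (SE 0.16, unadjusted p = 0.00583, edgeR adjusted p = 0.335) and Neurod1 by 0.36 (SE 0.13, unadjusted p = 0.00685, edgeR adjusted p = 0.335). Tph1 was higher by 0.44 (SE 0.19, adjusted p = 0.377 in edgeR) and Chga by 0.39 (SE 0.19, adjusted p = 0.409 in edgeR). On each of the 3 days all 4 had a positive difference. The 95% interval for Chga, 0.02 to 0.77 log2 units, came close to 0. Without the library labelled d3_KO_345 the 4 differences were 0.42 (Chga), 0.48 (Chgb), 0.44 (Tph1) and 0.39 (Neurod1), again with no call. Leaving out d7_KO_420 or d3_WT_346 gave no call of the 10 genes either, between the genotypes or between day 3 and day 7. Markers of other cells leaned the same way over all days. All 11 leukocyte markers were positive (median 0.40 log2 units, 4 at an unadjusted p under 0.05), as were all 6 tuft cell markers tested (median 0.37, 4 under 0.05) and 10 of 11 stromal ones (median 0.22, 1 under 0.05), with none called by edgeR. Their part in the endocrine genes was not tested.
The remaining 6 had intervals that included 0, and the L cell hormone Pyy leaned the other way, at -0.17 log2 units (95% interval -0.44 to 0.10).

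**Figure D4:**
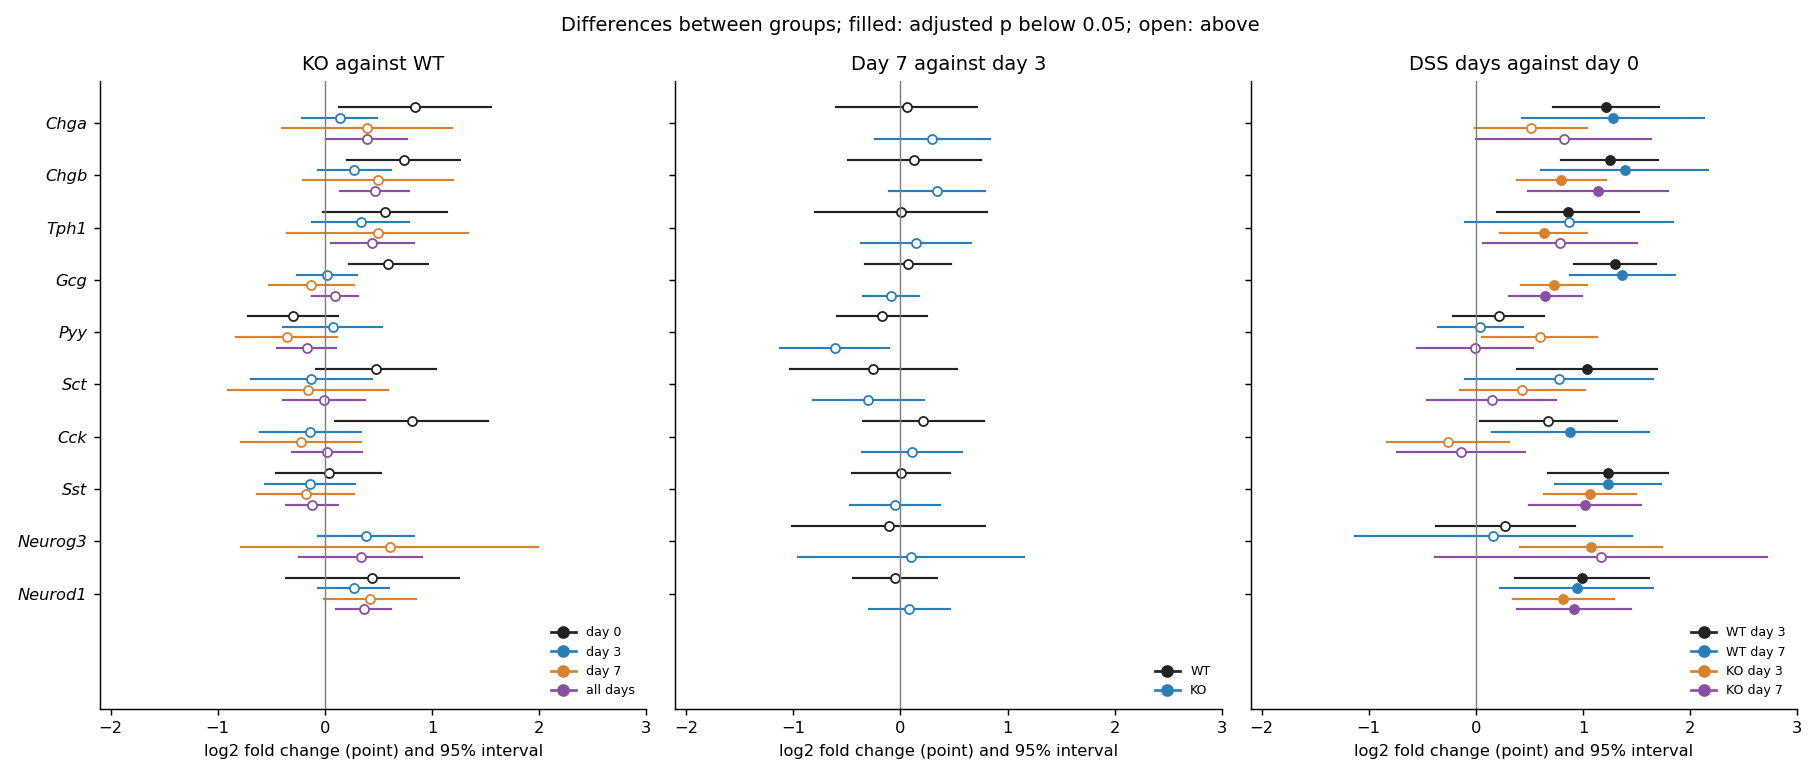
Points are log2 fold changes and lines their 95% intervals (x axes) for the 10 genes (rows) between KO and WT, between day 7 and day 3 in each genotype, and between the DSS days and day 0; filled points have an edgeR adjusted p under 0.05. Filled points occur only in the comparisons with day 0, where Gcg, Sst, Chgb and Neurod1 are filled in all 4.

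The next comparison followed colitis from day 3 to day 7. None of the 10 genes was called in either genotype, while 19.3% of the genes tested were called in WT and 19.3% in KO (edgeR). DESeq2 also called none of the 10. At an unadjusted p under 0.05, none of the 10 passed in WT and 1 in KO, against 5008 of 15541 and 4770 of 15568 genes tested. The median change of the 10 was 0.01 log2 units in WT and 0.09 in KO. Chga differed by 0.06 (95% interval -0.60 to 0.72) in WT and by 0.30 (-0.24 to 0.83) in KO, so that both intervals are wide. Gcg was bounded more tightly, with a 95% interval of -0.33 to 0.47 in WT and -0.35 to 0.18 in KO.

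Pyy came nearest to a call, at -0.61 log2 units in KO (SE 0.24, unadjusted p = 0.0219, edgeR adjusted p = 0.0907). It was called when either d3_KO_349 (-0.71) or d7_KO_421 (-0.77) was left out. In WT it stood at -0.17 (SE 0.20, edgeR adjusted p = 0.609). The difference between the genotypes in the change from day 3 to day 7 was -0.42 for Pyy (SE 0.32, edgeR adjusted p = 1). For Chga it was 0.25 (SE 0.42, edgeR adjusted p = 1). That interaction called none of the 10 and 0% of the 16371 genes tested, with 440 genes but none of the 10 at an unadjusted p under 0.05, and DESeq2 called none.

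Over the same interval leukocyte markers rose, with 8 of 11 called higher in WT and 11 of 11 in KO, and their summed level went from 15.2 to 54.6 CPM on day 3 to 137.1 to 952.7 CPM on day 7 in WT. In KO it went from 36.8 to 132.7 CPM to 117.6 to 1498 CPM. Among the other secretory lineages of the epithelium, goblet cell markers were called lower in 1 of 8 (WT) and 5 of 8 (KO), and tuft cell markers in 1 of 6 and 3 of 6. The WT counts are no larger a share than the 19.3% of all genes called in either direction. Of the epithelial markers none of 11 was called in WT and 1 in KO. Of the 7 genes tested of the colon list, which holds Car1, Car4, Slc26a3 and Aqp8 besides Hox genes, 4 were called lower in WT and 5 in KO, none higher. Hoxb13 was among them, going from a median of 190.0 to 39.5 CPM in WT and from 153.5 to 23.1 CPM in KO. The sum of the colon list went the other way, from a median of 5932 to 9730 CPM in WT and from 6621 to 8544 CPM in KO, since it is mostly Car1, which was not called. The part of these shifts in the values of the endocrine genes was not tested.

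The last comparison set the DSS days against day 0, where the other library series and the unknown age of the day 0 mice enter with the treatment. In WT on day 3, 7 of the 10 genes were higher and none lower, against 46% of genes tested called in either direction and 20.4% called higher. In WT on day 7, 6 were higher (56.9% of genes called, 27.8% higher). In KO, 6 were higher on day 3 (46.3% called, 22.6% higher) and 4 on day 7 (54.6% called, 27.3% higher), and none was lower. The 2 comparisons within a genotype share their day 0 libraries. Hoxd13, of the colon list, had medians of 1.03 CPM (WT) and 0.382 CPM (KO) on day 0. Its medians were 34.8 and 21.25 CPM on day 3, and 3.40 and 1.66 CPM on day 7. Hoxb13 had medians of 184.7 and 113.3 CPM on day 0, 190.0 and 153.5 CPM on day 3, and 39.5 and 23.1 CPM on day 7. The part of position along the gut in the changes from day 0 was not tested.

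Gcg, Sst, Chgb and Neurod1 were called in all 4. Gcg rose by 1.30 log2 units in WT on day 3 (SE 0.18, edgeR adjusted p = 4.45e-05) and by 1.37 on day 7, and in KO by 0.73 and 0.65. Sst rose by 1.23 (SE 0.26, edgeR adjusted p = 0.00169) and 1.24 in WT and by 1.06 and 1.02 in KO. Chgb rose by 1.25 and 1.39 in WT and by 0.80 and 1.14 in KO, and Neurod1 by 0.99 and 0.94 in WT and 0.82 and 0.91 in KO.
Chga rose in WT, by 1.22 on day 3 (SE 0.23, edgeR adjusted p = 0.000719) and 1.28 on day 7. In KO its differences of 0.52 (adjusted p = 0.0955, edgeR) and 0.82 (adjusted p = 0.082, edgeR) were not called. Other settings did call them: DESeq2 and 1 fit of all 38 libraries on day 7, and a filter on total count alone on both days. KO day 0 had the higher and more scattered untreated values of Chga. Whether the change from day 0 differed between the genotypes was not tested.

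The other genes were called in fewer comparisons. Tph1 rose on day 3, by 0.86 in WT and 0.63 in KO, Sct by 1.03 in WT on day 3, Cck by 0.88 in WT on day 7 and Neurog3 by 1.07 in KO on day 3. The Tph1 call on day 3 was lost in both genotypes in 1 fit of all 38 libraries, and in WT also with a filter on a mean of at least 1 CPM. That filter and the single fit also lost Neurog3, and the filter or 1 lane alone lost Cck. Tph1 in KO on day 7, not called by edgeR, was called by DESeq2 and with the filter on total count, and Tph1 in WT on day 7 in the single fit. Pyy was not called by edgeR in any of the 4, and its largest difference was 0.60 in KO on day 3 (edgeR adjusted p = 0.0653), which DESeq2, the single fit and the filter on total count did call. The epithelial marker list stood higher as well, with 4 and 5 (WT) and 5 and 6 (KO) of its 11 genes called higher on day 3 and day 7, from summed medians of 11710 (WT) and 11480 CPM (KO) on day 0 to 13690 to 15080 CPM in the DSS groups. Scaled to that list, the calls were 5 (WT day 3), 3 (WT day 7), 2 (KO day 3) and 2 (KO day 7), and the median of all genes moved by -0.23 to -0.41 log2 units. With that scaling Neurod1 was called in none of the 4, Gcg in neither KO comparison, and Chgb not in KO on day 3. Chga and Cck lost their WT day 7 calls, Tph1 both of its calls and Neurog3 its own. Sst was called in all 4 with that scaling too, at 0.95 and 0.95 log2 units in WT and 0.64 and 0.64 in KO, and 1 of the KO day 3 calls was Cck, lower by that scaling (-0.72) and not called without it (-0.26).

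Single libraries decided several of these calls. The WT day 3 call of Tph1 was lost without d0_WT_31, d0_WT_43 or d0_WT_46 or d3_WT_346, d3_WT_348 or d3_WT_353, and Cck was called instead without d0_WT_31. The WT day 7 call of Cck was lost without d0_WT_41, d0_WT_43 or d0_WT_46 or d7_WT_356, d7_WT_393 or d7_WT_419, and that of Neurod1 without d7_WT_370. Sct was called there without d7_WT_356. In KO, Chga was called on day 3 without d0_KO_53, and Pyy without d3_KO_349. On day 7 in KO, Tph1 was called without d0_KO_53 or d7_KO_366, d7_KO_367 or d7_KO_368, Chga without d7_KO_367 and Neurog3 without d7_KO_420. Leaving out the library labelled d3_KO_345 left 6 calls in KO on day 3.

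Other genes of the endocrine program were read from lists of transcription factors, hormones, granule proteins, amine enzymes and transporters, nutrient sensors and hormone receptors. Between KO and WT no gene of any of the 6 lists was called on any day. From day 3 to day 7, none of 11 transcription factors was called in either genotype, against the background of 19.3%. Granule and processing genes gave 1 higher of 16 in WT, and 1 higher and 2 lower of 16 in KO. Of the amine genes 1 was higher and 1 lower of 4 in WT, and 1 lower of 4 in KO. Hormones outside the set gave 1 higher and 1 lower of 5 in each genotype. Sensors gave 1 lower of 6 in each. Receptors gave 3 lower of 6 in WT, and 2 lower and 1 higher of 7 in KO.

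The called genes were mostly the same in both genotypes. Tac1, which encodes substance P and neurokinin A and is made by enterochromaffin cells and by neurons, rose from a median of 4.20 CPM (3.20 to 11.5) on day 3 to 21.7 CPM (12.8 to 45.0) on day 7 in WT, with no overlap. Of all genes of mean CPM of at least 1, 4.5% did not overlap between these 2 groups. In KO the median of Tac1 went from 5.38 CPM (3.23 to 13.1) to 17.7 CPM (8.60 to 36.2), and these ranges overlapped. The summed enteric neuron list went from 3.88 to 5.14 CPM on day 3 to 4.89 to 18.2 CPM on day 7 in WT, and from 4.11 to 11.5 CPM to 8.44 to 14.4 CPM in KO, with Ret called higher in both, and its part in Tac1 was not tested. The change of Tac1 was 1.94 log2 units (SE 0.34, edgeR adjusted p = 0.0011), and 1.63 in KO (SE 0.32, edgeR adjusted p = 0.00202). Insl5, a hormone of distal colonic L cells, fell in KO from a median of 17.7 CPM (9.06 to 24.6) to 4.70 CPM (2.84 to 11.2), by 1.58 log2 units (SE 0.30, edgeR adjusted p = 0.00136). In WT it fell by 0.97 (SE 0.30, edgeR adjusted p = 0.0362). Gcg and Pyy, which L cells also make, were not called over the same days.

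Ddc, the decarboxylase that makes serotonin from the product of Tph1 and is also expressed by enterocytes, fell by 0.83 log2 units in WT (edgeR adjusted p = 0.00126) and 0.83 in KO (edgeR adjusted p = 4.87e-05). Its medians went from 71.9 to 40.7 CPM and from 67.0 to 40.5 CPM. Gch1, which makes the cofactor of tryptophan hydroxylase, rose by 0.69 in WT. Cpe, the carboxypeptidase that trims prohormones, rose by 0.88 in WT and 0.92 in KO, while Scg2, secretogranin 2, fell by 1.09 and Pam, the amidating enzyme, by 0.35 in KO. Ffar2, a receptor for short-chain fatty acids, fell by 0.46 in WT and 0.47 in KO. Of the receptors for gut hormones and serotonin, Htr4 fell by 1.21 in WT and 1.13 in KO and Npy1r by 1.76 in WT and, at a change of -1.59, in KO. Sstr2 fell by 1.07 in WT, and Glp1r, at a median of 0.171 CPM on day 3, rose by 1.05 in KO.
The calls of Tac1, Cpe, Ddc and Htr4 held in each genotype whichever library was left out, as did those of Insl5 and Scg2 in KO and of Gch1 and Sstr2 in WT. The WT call of Insl5 was lost without d3_WT_348, d3_WT_486 or d3_WT_487 or d7_WT_356, d7_WT_361, d7_WT_370, d7_WT_419 or d7_WT_431. That of Ffar2 was lost without 7 of 14 libraries in WT (d3_WT_348, d3_WT_486, d7_WT_356, d7_WT_361, d7_WT_393, d7_WT_419 or d7_WT_431) and without d7_KO_367 in KO. That of Npy1r was lost without d3_WT_352 in WT and without 8 of 15 libraries in KO (d3_KO_349, d3_KO_350, d3_KO_351, d7_KO_366, d7_KO_367, d7_KO_368, d7_KO_420 or d7_KO_422). In KO that of Pam was lost without 8 of 15 (d3_KO_350, d3_KO_351, d3_KO_385, d3_KO_392, d7_KO_368, d7_KO_421, d7_KO_422 or d7_KO_423) and that of Glp1r without 11 of 15 (d3_KO_345, d3_KO_349, d3_KO_351, d3_KO_385, d3_KO_387, d3_KO_388, d7_KO_367, d7_KO_368, d7_KO_421, d7_KO_422 or d7_KO_423).

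**Figure D5:**
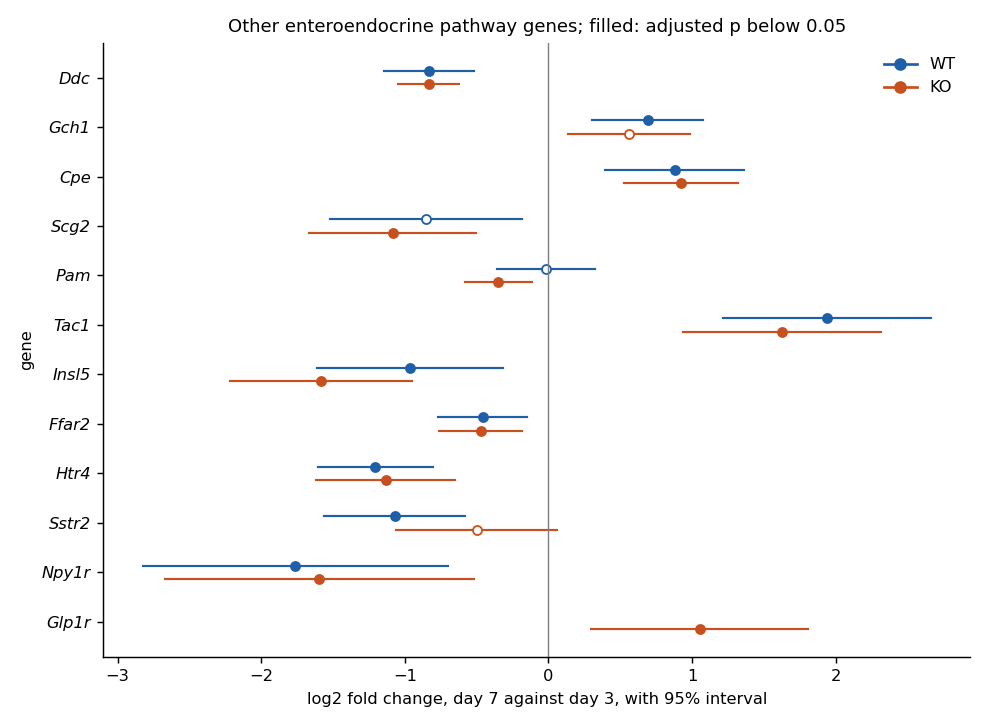
log2 fold change from day 3 to day 7 (points, x axis) with 95% intervals (lines) in WT (blue) and KO (orange) for the called genes of the 6 related lists (rows); filled points have an edgeR adjusted p under 0.05, and Glp1r was tested in KO alone. Tac1 and Cpe lie to the right, and Ddc, Insl5, Ffar2, Htr4 and Npy1r to the left, in both genotypes.

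Against day 0, 2 transcription factors of the list were called in all 4 comparisons. Fev, a serotonergic factor of enterochromaffin cells, rose in all 4 comparisons, by 2.35 and 2.41 log2 units in WT and 1.53 and 1.55 in KO, from medians of 0.129 CPM (WT, with no count in d0_WT_31) and 0.198 CPM (KO) on day 0, near the counting limit, so that the fitted sizes are uncertain. St18 fell in all 4, by 1.86 and 1.86 in WT and by 1.25 and 1.75 in KO. No call of Fev or St18 was lost when single libraries were left out, while that of Fev in KO on day 7 was lost with 1 lane alone (1.07). In WT on day 3 the list gave 3 higher and 2 lower of 11, a share close to the 46% of all genes called.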

How the data were processed

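The authors deposited read counts per gene, as whole numbers, in 2 lane files for each of 38 libraries. Per the submitters' processing notes, reads were trimmed with Trim Galore and aligned with STAR to GRCm38, and per the file headers genes were counted with featureCounts 1.6.2 (the notes name 1.5.2) without regard to strand. The 2 lanes were summed. Groups come from the labels, which number the mice, so each library is 1 mouse and p-values measure the spread between mice. The members and all gene lists were chosen with earlier results of these data known.

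Each comparison was fitted across all genes with edgeR 4.0.16 in R 4.3.3 (TMM scaling, filterByExpr, quasi-likelihood test, Benjamini-Hochberg adjusted p under 0.05), using the compared groups alone or, over all days, 38 libraries with day as a term. The fit was tested on simulated data. DESeq2 1.42.0, other scalings and filters, 1 lane alone, 1 fit of all libraries and leaving out each library were alternatives. Levels are TMM-scaled CPM, and RPKM only between genes. Correlations used log2 CPM with a prior count of 2 and 100000 permutations within groups; the set of 45 pairs and the day 0 values without d0_KO_32 were added after seeing the data. Related genes were named where called between day 7 and day 3, at most 5 a list by adjusted p; Fev and St18 were chosen after their values were seen. Totals were 10503352 to 17488676 counts in KO and 12728438 to 44936774 in WT on day 0, and 25180482 to 60644284 later; limits from a count of 0 cover counting error only.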

Additional observations from a re-analysis of the deposited data

Results flagged for a closer look

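Cck stood out in single libraries of 3 groups, in each of which 1 mouse lay farther above the others than the 95% limit of Dixon's test allows. Cck was at 2.157 CPM in d3_WT_346, at 3.008 CPM in d7_WT_386 and at 2.296 CPM in d7_KO_420. Over the 10 genes and 6 groups 60 sets of values were tested, and chance flags about 1 in 20.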

How the results depend on the processing

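Counts of called members kept within 1.5 times of the reported count under all alternatives run except these. Scaled to the epithelial marker list, 3 members were called for WT day 7 against day 0, 2 for KO day 3 against day 0 and 2 for KO day 7 against day 0. Leaving out 1 library gave 0 to 1 for KO day 7 against day 3, Pyy being called without d3_KO_349 or d7_KO_421. Chga between day 7 and day 3 in WT ran from -0.16 to 0.18 log2 units when 1 library was left out, negative without d3_WT_487 (-0.04), d7_WT_370 (-0.16) or d7_WT_419 (-0.15). The correlation of Neurog3 with Chga was 0.0714 with the epithelial scaling. The causes were not tested. Of all genes, DESeq2 called 175 between KO and WT on day 0, where edgeR called 5, and 89 on day 7, where edgeR called 1, with no member among them. No paired analysis was possible because the animal numbers are not shared between groups. The KO day 0 libraries were the shallowest, which limits Neurog3, Cck and Fev there most.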
